A study of Mus musculus with 3 samples.

Results

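The nuclei described here were chosen from the prefrontal cortex (PFC) with the markers of pericytes and vascular smooth muscle cells, the 2 cell types of the vessel wall that lie outside the endothelium. Of 43464 nuclei that had at least 200 detected genes and under 10% mitochondrial counts, 59 met the rule, 19 in the C57BL/6J library, 22 in the Nav1 KO library and 18 in the BTBR library. The rule asked for at least 2 UMIs (unique molecular identifiers, each the tag of 1 captured RNA molecule) over Rgs5, Pdgfrb, Vtn, Kcnj8 and Acta2, from at least 2 of these 5 genes. It also asked for 0 UMIs of the endothelial genes Flt1 and Cldn5, of the meningeal fibroblast genes Slc6a13, Ranbp3l, Slc47a1 and Foxd1, and of the neuronal genes Slc17a7, Gad1 and Gad2. Measured values therefore chose the nuclei, and the levels of these 14 genes are given only as a description.

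The study profiled single nuclei of the PFC by droplet-based 3′ RNA sequencing in male mice of 6 to 8 weeks, with 1 library for each of 3 groups. The C57BL/6J library pooled 5 wild-type mice of the inbred reference strain, and the Nav1 KO library pooled 4 mice with a CRISPR deletion in exon 1 of Nav1 (neuron navigator 1) made in C57BL/6J embryos. The third library was from BTBR T<+> Itpr3<tf>/J mice, an inbred strain for which the number of pooled mice is not given in the sources used here. The deletion is constitutive, and nuclei with the neuronal protein NeuN and nuclei without it were sorted and mixed in set proportions. The sort fixed how many nuclei were taken with and without NeuN, so shares of all nuclei are not those of the tissue, and the labels call the cells neurons. The kept nuclei of the C57BL/6J library held 38704723 UMIs, those of Nav1 KO 50965774 and those of BTBR 48948184.

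Each pool is 1 sample, so no test between groups could be made. The intervals given are exact 95% intervals that cover counting error only, and the spread between mice is unknown.

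Pericytes wrap the endothelium of capillaries and share its basement membrane. They are recruited by platelet-derived growth factor from endothelial cells through the receptor Pdgfrb, and in the brain they help to form the blood-brain barrier. Smooth muscle cells sit on arterioles and contract through smooth muscle actin (Acta2), smooth muscle myosin heavy chain (Myh11) and their partners.

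The label was borne out in part. The chosen nuclei carried 182 UMIs of 19 further pericyte genes, or 2013 CPM (counts scaled to the same total), against 257 CPM in all other nuclei. The defining genes of smooth muscle had few UMIs, since Acta2 was found in 2 nuclei and Myh11, Tagln, Cnn1, Des and Myocd had 0 UMIs in all 59. At this depth the exact interval of a gene with 0 UMIs reaches 40.8 CPM. These counts therefore do not show that smooth muscle cells were absent. The nuclei are called Vtn/Pdgfrb nuclei here after the 2 most frequent markers. They also carried astrocyte RNA, since 8 astrocyte genes stood at 3030 CPM in them and at 675 CPM in other nuclei. Nuclei with at least 2 UMIs of the astrocyte markers Aqp4 and Gja1 (astrocyte-marker nuclei) were at 3332 CPM. Those were chosen with 2 of the 8 genes and without excluding neuronal genes, and they held 23001 CPM of 5 neuronal genes and 316 CPM of Slc17a7, so their astrocyte level is no measure of a pure astrocyte. Over the 6 genes without Aqp4 and Gja1, a step chosen after seeing the data, the levels were 2765 CPM here, 2674 CPM there and 615 CPM in other nuclei.

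Vtn encodes vitronectin, a secreted matrix glycoprotein, and was found in 53 of the 59 nuclei with 150 UMIs. Its level was 2216 CPM in C57BL/6J, 1258 CPM in Nav1 KO and 1837 CPM in BTBR. The receptor gene Pdgfrb was found in 49 nuclei with 97 UMIs, at 1237, 814 and 1312 CPM in the same order. Rgs5, a regulator of G protein signaling enriched in pericytes, was found in 22 nuclei with 32 UMIs, at 464, 296 and 361 CPM. Kcnj8, the pore-forming subunit of the vascular ATP-sensitive potassium channel, had 10 UMIs in 10 nuclei. Acta2 had 3 UMIs in 2 C57BL/6J nuclei and 0 in the other libraries, where 3 UMIs would be 74.0 CPM in Nav1 KO and 98.4 CPM in BTBR.

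These markers came in few combinations. Pdgfrb with Vtn alone made up 29 of the 59 nuclei, Rgs5 with both made up 7, and 45 nuclei had exactly 2 of the 5 genes. The sum over the 5 genes ran from 2 UMIs to 19, with a median of 3.0 in each library. At the edge of the rule, 19 nuclei had exactly 2 UMIs, and just outside it were 600 nuclei with 1 UMI and 158 with at least 2 UMIs from 1 gene only. Vtn and Pdgfrb were at 38.8 and 22.4 CPM in all other nuclei, so they were not at 0 elsewhere.

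Vtn lies on chromosome 11 at chr11:78499091-78502324 of mm10 (plus strand), Rgs5 at chr1:169655501-169695813 (plus strand) and Kcnj8 at chr6:142564837-142571614 (minus strand). Atp13a5, the gene with the highest ratio beyond the rule, lies at chr16:29231851-29378732 (minus strand), and Tbxa2r, which had the highest ratio among the vasoactive receptors, at chr10:81328731-81335172 (plus strand). The 250 bases before the RefSeq start of Vtn, Atp13a5 and Tbxa2r are shown as examples of a gene the rule used, the leading gene and a vasoactive receptor. They are from RefSeq on GRCm38.p6, the same assembly as mm10, written 5′ to 3′ on the strand of the gene. Capitals mark TGGGAA, the core bound by RBPJ, the DNA-binding partner of Notch, searched on both strands.
Vtn, chr11:78498870-78499119, plus strand: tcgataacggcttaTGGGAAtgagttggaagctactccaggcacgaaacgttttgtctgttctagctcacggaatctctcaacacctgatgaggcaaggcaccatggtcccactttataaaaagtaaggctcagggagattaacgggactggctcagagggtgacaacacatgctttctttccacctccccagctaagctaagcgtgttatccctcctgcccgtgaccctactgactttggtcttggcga
Atp13a5, chr16:29378733-29378982, minus strand: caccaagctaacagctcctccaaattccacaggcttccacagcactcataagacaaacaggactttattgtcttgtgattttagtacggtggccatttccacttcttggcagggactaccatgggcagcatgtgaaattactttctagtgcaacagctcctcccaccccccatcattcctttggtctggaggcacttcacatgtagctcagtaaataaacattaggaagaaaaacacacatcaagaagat
Tbxa2r, chr10:81328018-81328267, plus strand, the first of 2 starts: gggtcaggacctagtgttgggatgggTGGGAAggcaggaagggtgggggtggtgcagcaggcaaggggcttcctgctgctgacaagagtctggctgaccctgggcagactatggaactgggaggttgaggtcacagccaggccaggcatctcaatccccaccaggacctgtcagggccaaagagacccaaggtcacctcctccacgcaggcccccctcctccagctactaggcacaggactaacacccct
The core was found once in the Vtn window, once in the Tbxa2r window and not in that of Atp13a5. Of the 20 leading genes described further on, 16 had such a window and 5 of these (Art3, Ebf1, Nid1, Tbxa2r and Tns1) held the core, 31.2% against 24.1% of 27025 genes. A match is a description of letters, and 6 letters are found often.

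The first question was how much of the chosen set carries pericyte genes that the rule did not use. Of the 59 nuclei, 41 had a UMI of the 19 pericyte genes and 32 had at least 2 UMIs from at least 2 of them, 54.2% against 8.31% of other nuclei. Among the nuclei with 5 or more marker UMIs, 20 of 22 had a pericyte UMI. The level was 623 CPM in nuclei with 2 marker UMIs (interval 391 to 943), 1441 CPM in those with 3 or 4 (1051 to 1929) and 4812 CPM in those with 5 or more (3972 to 5775), and these intervals did not overlap. Within libraries the same steps were 472, 954 and 5124 CPM in Nav1 KO and 277, 1011 and 5330 CPM in BTBR. C57BL/6J had 1462, 4164 and 3828 CPM, with no difference between its last 2 steps beyond counting error. The intervals of the first 2 steps overlapped in each library. They were 204 to 931 and 545 to 1549 in Nav1 KO, 57.1 to 809 and 485 to 1859 in BTBR, and 730 to 2616 and 2507 to 6502 in C57BL/6J. Of the counts in other nuclei, 20304 of 35602 were of the receptor gene P2ry14. It stood at 147 CPM there and 99.5 CPM in the chosen nuclei, a ratio of 0.679 with an interval (0.310 to 1.29) that held 1. Without it, a step chosen after its values were seen, the list stood at 1913 CPM against 110 CPM, and nuclei with 1 marker UMI were at 132 CPM against 115 CPM with 0.

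**Figure D1:**
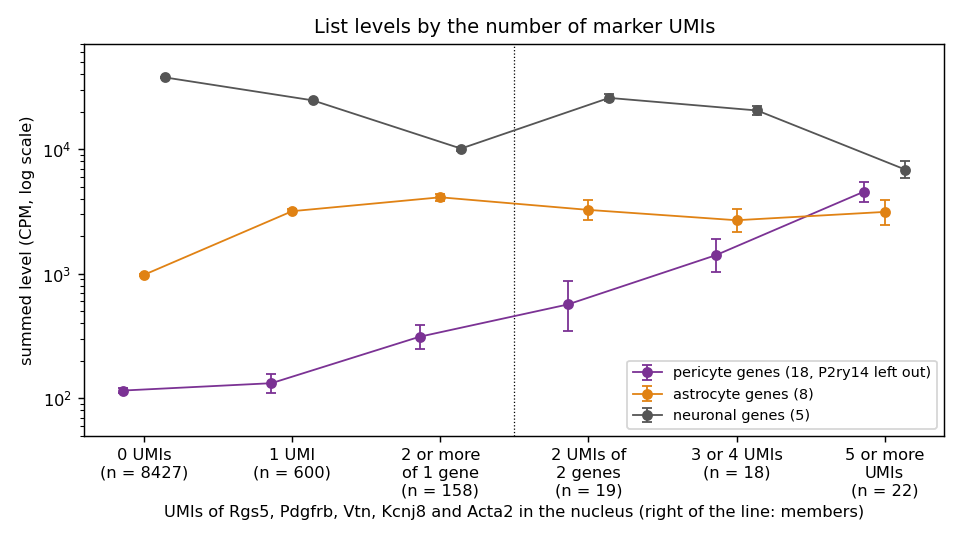
Summed level in CPM (log scale) of 3 gene lists against the number of UMIs of the 5 marker genes in a nucleus, with exact 95% Poisson intervals and all 3 libraries pooled (the pericyte list without P2ry14). Nuclei with endothelial, fibroblast or neuronal exclusion genes are left out. The pericyte genes lie at 567 CPM at 2 marker UMIs and at 4560 CPM at 5 or more, while the astrocyte genes of the pooled libraries lie between 2690 and 3258 CPM in the chosen nuclei.

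The astrocyte genes were at 3258, 2690 and 3138 CPM in the same steps with the libraries pooled, and the libraries differed in order. In Nav1 KO they were at 5077, 2505 and 2050 CPM and in C57BL/6J at 532, 5041 and 4238 CPM. They were already at 3181 CPM in nuclei with 1 marker UMI and at 4111 CPM in those with several UMIs of 1 marker gene. All 8 astrocyte genes had UMIs in the chosen nuclei, led by the glutamate transporter genes Slc1a2 (117 UMIs, 1294 CPM) and Slc1a3 (83 UMIs, 918 CPM) and by Ntsr2 (40 UMIs). The water channel gene Aqp4 and the gap junction gene Gja1 had 12 UMIs each.

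The lists were unevenly spread over the nuclei. A pericyte UMI without an astrocyte UMI was found in 20 nuclei, both in 21, an astrocyte UMI alone in 11 and neither in 7. The 11 nuclei with astrocyte UMIs alone were deeper, with a median of 2102 UMIs against 777.5 in the 20, and had a median of 2.0 marker UMIs against 5.0. By library, 7 of the 11 were from Nav1 KO, 3 from BTBR and 1 from C57BL/6J. The highest pericyte count of a C57BL/6J nucleus was 9 UMIs, of a Nav1 KO nucleus 8 and of a BTBR nucleus 14, and the highest astrocyte count was 16, 40 and 21.

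**Figure D2:**
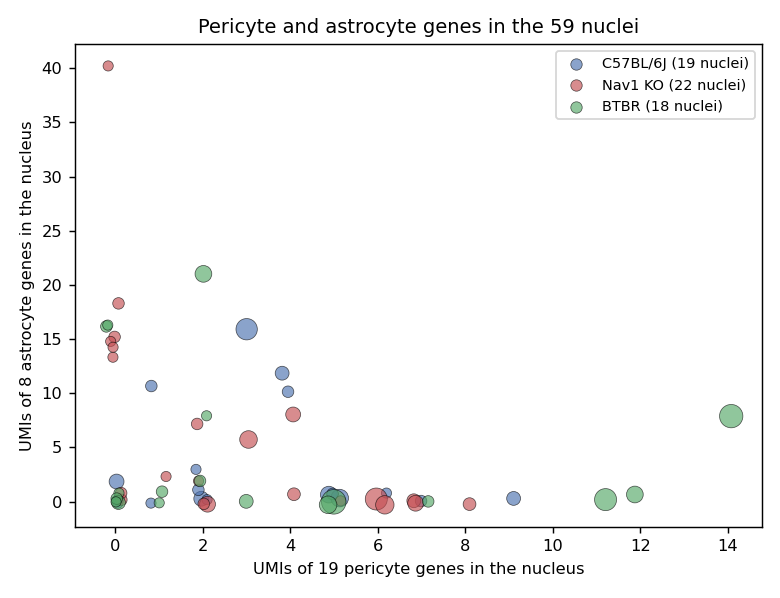
UMIs of 8 astrocyte genes (y) against UMIs of 19 pericyte genes (x) in each of the 59 nuclei, coloured by library, with a point's area growing with its marker UMIs and small random shifts so that points can be told apart. Nuclei with 5 or more pericyte UMIs have 0 or 1 astrocyte UMI, apart from 1 BTBR nucleus with 14 and 8, and the highest astrocyte count, 40, lies at 0 pericyte UMIs.

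Neuronal RNA was also present. Meg3, Snhg11, Syt1, Snap25 and Rbfox3 together stood at 18966 CPM against 40312 CPM in other nuclei, of which Meg3 was 10583 CPM, and 4 of the 5 had a ratio of 0.5 or less. Per nucleus these 5 genes were from 0.0855% to 8.00% of the UMIs, with a median of 0.911%. In 12 nuclei they passed 3%, a cut chosen after the values were seen. Those 12 had a median of 2.0 marker UMIs and none had 5 or more, and 6 of them had a pericyte UMI against 35 of the other 47. Of other lists, the 15 endothelial genes had 9 UMIs (4 of Esam, and 0 of Pecam1 and Tek), the 7 oligodendrocyte genes 60, the 8 microglial genes 16 and the 14 meningeal fibroblast genes 77, of which 51 were of Slc7a11, all in nuclei with an astrocyte UMI. Dcn had 3 UMIs and Col1a2 had 1.

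The rule itself had a background. Its 5-gene part was passed by 713 nuclei, and the exclusion genes removed 654 of them. Among nuclei with at least 2 UMIs of Slc17a7, which excitatory neurons express and pericytes lack, 1.04% passed the 5-gene part (median 3594.5 UMIs), with 0.183% for C57BL/6J, 1.31% for Nav1 KO and 1.44% for BTBR. Among nuclei with astrocyte markers 12.6% passed it (median 2968 UMIs), and among those with oligodendrocyte markers 4.76%. The chosen nuclei were shallower than these, with a median of 1245 UMIs. The share of a marker pair in neurons was thus lower in the C57BL/6J library than in the other 2.

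A comparison across all genes set the summed counts of the 59 nuclei against all 43405 others. A gene entered with at least 50 CPM on either side, the 14 rule genes were left out, and a ratio of at least 2 or at most 0.5, with 5 CPM added to both sides, was called. The chosen nuclei held 90426 UMIs in all, so that 3 UMIs are 33.2 CPM. Of 4553 genes, 644 were called higher (14.1%) and 724 lower (15.9%), with a median ratio of 0.963. The filter ties a call to the side that passed it. Of the 644, 541 reached 50 CPM in the chosen nuclei only, and of the 724, 531 reached it in the other nuclei only. With levels under 3 UMIs set to 33.2 CPM, 492 of the 724 were still at 0.5 or less. The counts called within a list therefore describe it and support nothing. The same holds for counts of genes that stood above other nuclei, since 1 UMI is already 11.1 CPM. Of 25417 genes 25.1% stood above, and of the 11117 with a UMI in the chosen nuclei 57.4%.

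The 20 genes with the highest ratios, among those found in at least 10% of the 59 nuclei and in each library, are given as a description. A UMI in each library was part of their choice, and 1 UMI is already 51.5 CPM in C57BL/6J, 24.7 CPM in Nav1 KO and 32.8 CPM in BTBR, so their height in every library says nothing further. In the order of their ratios the first 19 were Atp13a5, Slc38a11, Carmn, Rbpms, Igfbp7, Cspg4, Art3, Notch3, Plekhg2, Eva1b, Tbxa2r, Tbx3os1, Itga1, Ggt5, Ebf1, Tns1, Slc7a10, Nid1 and Slco1c1. Of the 20, 17 were also at least 2-fold higher than in astrocyte-marker nuclei and 18 than in nuclei chosen by fibroblast markers. Against endothelial nuclei 14 were. The 20 were picked as high here, so these counts describe them and support nothing. Endothelial nuclei held 29498 UMIs in all, so that 3 UMIs there are 102 CPM. Most of the 14 had 0 UMIs there, and for most of these a 2-fold difference could not be told at this depth.

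Atp13a5, a P5-type ATPase known as a marker of brain pericytes, had 27 UMIs in 14 nuclei. It stood at 567 CPM in C57BL/6J, 123 CPM in Nav1 KO and 361 CPM in BTBR, against 2.53, 5.75 and 5.03 CPM in the other nuclei of each. Its ratio was 31.6.

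Slc38a11, a putative amino acid transporter, had 11 UMIs, at 206, 49.3 and 164 CPM in the 3 libraries against 0.801, 0.707 and 1.14 CPM. The proteoglycan NG2 is encoded by Cspg4, which had 24 UMIs and 309, 173 and 361 CPM against 6.36, 9.35 and 11.1 CPM. Oligodendrocyte precursors also express it, and of their 5 listed genes 4 stood above other nuclei, with 73 UMIs of Cspg5 and 4 of Pdgfra, the latter in 1 nucleus. Carmn, a long noncoding RNA of vessel wall cells, was at 51.5, 148 and 197 CPM against 1.27, 3.34 and 1.64 CPM, with 1 UMI in C57BL/6J. Igfbp7, a secreted binding protein of insulin-like growth factors found in vessels, had 27 UMIs, but its 542 CPM in endothelial nuclei was above its 299 CPM here. The same held for Ebf1, a transcription factor that pericytes express, with 31 UMIs and 343 CPM here against 542 CPM in endothelial nuclei. Notch3, the Notch receptor of the vessel wall, had 11 UMIs in 11 nuclei, at 155, 98.7 and 131 CPM against 1.29, 1.69 and 1.90 CPM.

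**Figure D3:**
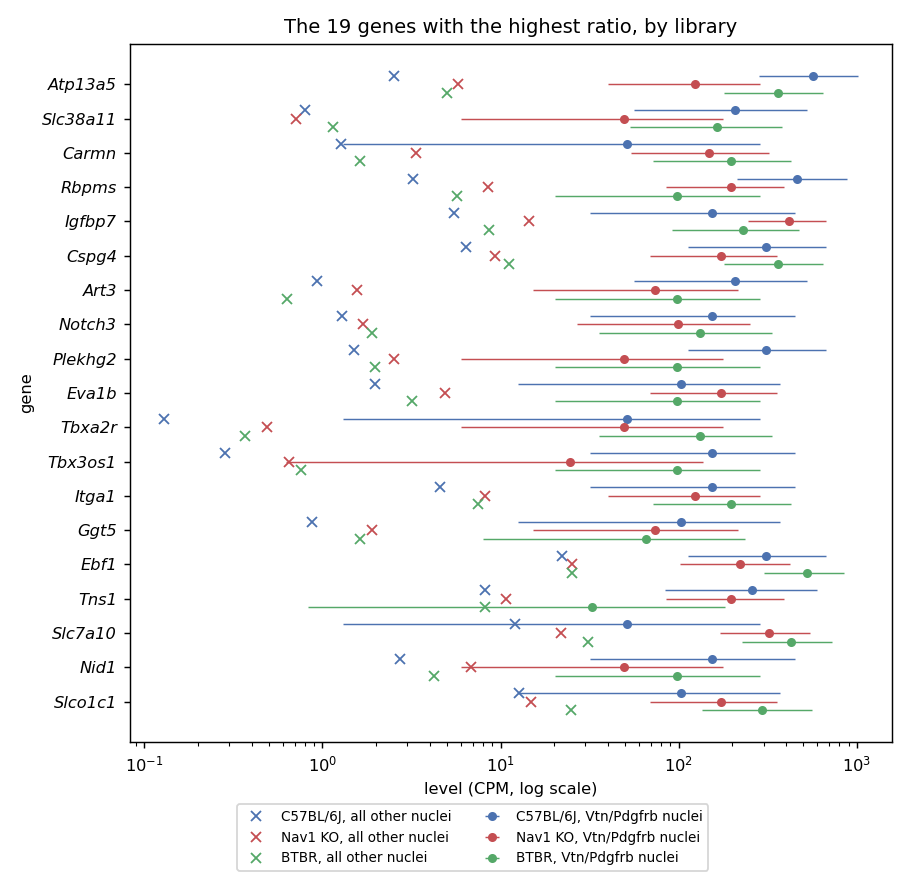
Level in CPM (log scale) of the 19 genes with the highest ratio, for each library: dots with exact 95% Poisson intervals are the Vtn/Pdgfrb nuclei, crosses are all other nuclei. Each dot lies above the cross of its library, for Atp13a5 by 567 against 2.53 CPM in C57BL/6J and 123 against 5.75 CPM in Nav1 KO.

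Some of the 20 followed the astrocyte genes. Slc7a10, an amino acid exchanger of astrocytes, had 1 of its 27 UMIs in the 27 nuclei without an astrocyte UMI, and the thyroid hormone transporter gene Slco1c1 had 0 of 18. The reverse was seen for Carmn, with 12 of 13 UMIs in those 27 nuclei, and for Igfbp7 with 19 of 27. Plekhg2 had 1 of 11 UMIs there, but its intervals without and with astrocyte UMIs (0.749 to 165 and 84.7 to 325 CPM) overlapped. Of its UMIs, 8 were in nuclei with 5 or more marker UMIs. Atp13a5 was at 266 CPM without astrocyte UMIs and 318 CPM with them, and the intervals (122 to 506 and 188 to 502) overlapped.

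Of the 19 pericyte genes, 17 had UMIs, 16 stood above other nuclei and 13 entered the comparison. The 12 called higher all entered through the chosen nuclei only. The median ratio over all 19 was 9.18, against 0.970 over 25417 genes, and it was 5.86 without C57BL/6J, 14.5 with 1 CPM added and 4.07 with 20 CPM added. The list was chosen because it marks these cells, so its direction is a check of the label. Beside those named, Zic1 (15 UMIs), Slc6a20a (14), Art3 (10), Tbx18 (8), Higd1b (6), Ndufa4l2 (6) and Abcc9 (5) were called higher. Higd1b and Abcc9, the sulfonylurea receptor that pairs with Kcnj8, were at 66.4 and 55.3 CPM against 0.361 and 0.563 CPM. In C57BL/6J, Nav1 KO and BTBR, Higd1b had 0, 2 and 4 UMIs and Abcc9 had 3, 2 and 0. Of the 13, P2ry14 was the gene not called, with 99.5 against 147 CPM, and Anpep and Pth1r had 0 UMIs. Zic1 and Slc6a20a were higher still in fibroblast nuclei, at 470 and 311 CPM against 166 and 155 CPM here. By library Zic1 was at 412, 148 and 32.8 CPM in C57BL/6J, Nav1 KO and BTBR, against 16.5, 31.7 and 29.6 CPM in other nuclei. Its BTBR level was 1 UMI.

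Of 18 contractile genes, 8 had UMIs, all 8 stood above other nuclei, 2 entered the comparison and 1, Cald1, was called higher. The summed list was 3.35 times that of other nuclei (2.62 to 4.23), and 1.81 times without Cald1, which was left out after its values were seen. Cald1, caldesmon, is an actin-binding protein that also has forms outside muscle. It had 41 UMIs, at 1134, 197 and 361 CPM in C57BL/6J, Nav1 KO and BTBR, against 43.2, 50.4 and 57.1 CPM in other nuclei. C57BL/6J was thus the highest of the 3, and fibroblast nuclei were at 361 CPM. Tpm1, a tropomyosin, had 19 UMIs and 210 against 143 CPM. Myl9, the regulatory myosin light chain, had 4 UMIs and 44.2 against 0.888 CPM, below the filter. The 10 genes with 0 UMIs were Myh11, Tagln, Cnn1, Myocd, Des, Actg2, Synpo2, Sncg, Mustn1 and Map3k7cl. At this depth the exact interval of each reaches 40.8 CPM. The median ratio over the 18 was 0.991, or 6.45 with the 10 set to 33.2 CPM, so for the 10 the side could not be told at this depth.

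**Figure D4:**
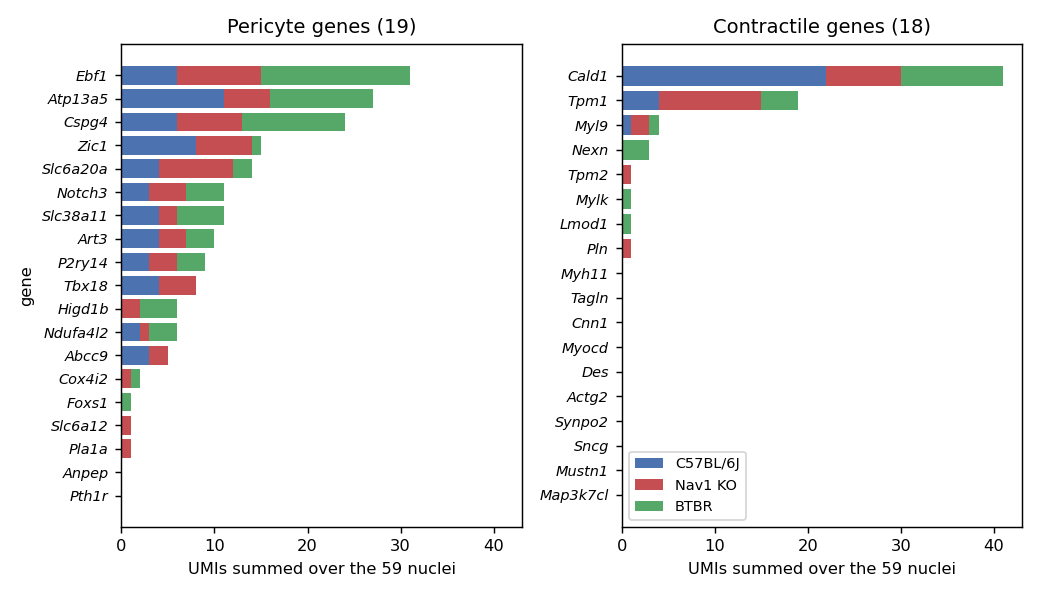
UMIs summed over the 59 nuclei for each of 19 pericyte genes (left) and 18 contractile genes (right), with bars stacked by library. Of the pericyte genes 17 have UMIs, from 31 of Ebf1 down to 1, while Cald1 (41 UMIs) and Tpm1 (19) hold 60 of the 71 contractile UMIs and 10 genes have 0.

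The 2 nuclei with Acta2 had 2248 UMIs, none of them of a contractile gene, and the exact interval for the list reached 1641 CPM. The 57 without Acta2 stood at 805 CPM (629 to 1016). No difference was detectable at this depth. The general actin genes Actb and Actg1 had ratios of 1.24 and 1.33.

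Among receptors for vasoactive signals, 13 of 27 genes had UMIs, 10 stood above other nuclei and 5 entered. The 4 called higher entered through the chosen nuclei only, and Npy1r, the one that entered through the others, was not called. Tbxa2r, the thromboxane A2 receptor, had 7 UMIs at 51.5, 49.3 and 131 CPM in the 3 libraries, against 0.129, 0.491 and 0.368 CPM. It was at 0.121 CPM in astrocyte-marker nuclei. Ednra, the endothelin receptor of vessel walls, had 5 UMIs and 55.3 against 2.20 CPM. S1pr1 (11 UMIs) and Ednrb (7 UMIs) had ratios of 4.79 and 4.67, but their 122 and 77.4 CPM lay below or near the 152 and 71.8 CPM of astrocyte-marker nuclei, and both had 0 UMIs in C57BL/6J. Of 19 genes of vascular tone, 5 stood above other nuclei and 13 entered, with 3 called higher, through the chosen nuclei only, and 3 lower. The summed list was 0.663 times that of other nuclei (0.556 to 0.785). Among the higher were Ano1 (a calcium-activated chloride channel, 66.4 against 2.19 CPM) and Gucy1b1 (a subunit of the nitric oxide receptor, 144 against 38.7 CPM). Of the 6 UMIs of Ano1, found in 4 nuclei, C57BL/6J supplied 5 and BTBR 0, so its call rests mainly on 1 library. Gucy1a1, the partner subunit of Gucy1b1, was called lower on 2 UMIs, at 22.1 against 57.6 CPM, too few to compare. Kcnma1 and Ryr2, ion channels that neurons also express, were lower, with 15 and 10 UMIs and 166 and 111 CPM against 439 and 536 CPM.

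Of 17 Notch pathway genes, 15 had UMIs, 12 stood above other nuclei and 7 entered, 5 of them through the chosen nuclei only, which were called higher. Beside Notch3, the receptors Notch2 (11 UMIs, 122 against 15.5 CPM) and Notch1 (9 UMIs, 99.5 against 13.5 CPM), the ligand Jag1 (8 UMIs, 88.5 against 6.11 CPM) and the target Hes1 (6 UMIs, 66.4 against 24.5 CPM) were higher. Notch1 and Hes1 were at 78.0 and 76.1 CPM in astrocyte-marker nuclei and at 136 and 102 CPM in endothelial nuclei. Notch2 had 0 UMIs in C57BL/6J, and fibroblast nuclei were at 118 CPM for Notch2 and 111 CPM for Hes1. Heyl, a Notch target of the vessel wall, had 4 UMIs and 44.2 against 0.837 CPM, below the filter. The ligand gene Jag2 and the glycosyltransferase gene Rfng entered through the other nuclei, at 53.8 and 54.5 CPM, and their 1 and 2 UMIs here were too few to compare.

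Ligands of the platelet-derived growth factor family had few UMIs, 3 of Pdgfa, 3 of Pdgfd and 1 of Pdgfb, and Pdgfb was at 271 CPM in endothelial nuclei. Of 24 genes of the transforming growth factor and bone morphogenetic protein pathways, 5 entered and 3 were called higher, all inhibitors of differentiation. Id2, Id4 and Id3 were at 144, 133 and 122 CPM against 54.0, 19.3 and 34.8 CPM, and Id3 was higher in endothelial nuclei, at 542 CPM. Angpt2 was the one angiopoietin pathway gene of 4 with UMIs, with 3.

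Of 26 basement membrane and matrix genes, 20 stood above other nuclei and 14 entered, of which 11 were called higher (10 through the chosen nuclei only) and 1 lower. Sparcl1, a matricellular protein, had 70 UMIs and 774 against 214 CPM, near its 705 CPM in astrocyte-marker nuclei. The collagen receptor subunit gene Itga1 had 14 UMIs in 13 nuclei and was at 155, 123 and 197 CPM in the 3 libraries, against 6.94 CPM in other nuclei and 271 CPM in endothelial nuclei. Nid1, the basement membrane linker nidogen, had 8 UMIs and 88.5 against 4.76 CPM, and the laminin genes Lama2 and Lamb2 were at 88.5 and 77.4 CPM against 8.79 and 5.70 CPM. In fibroblast nuclei Nid1, Lama2 and Lamb2 were at 73.8, 71.4 and 92.3 CPM, and Lamb2 was at 170 CPM in endothelial nuclei. The collagen gene Col4a2 was lower, at 66.4 against 175 CPM, and Col4a1 did not pass, at 77.4 against 64.4 CPM. The summed list was 2.33 times that of other nuclei (2.02 to 2.67) and 0.993 times that of endothelial nuclei (0.752 to 1.33).

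Of 12 solute carrier genes, 11 stood above other nuclei, and the 7 that entered were called higher, 6 of them through the chosen nuclei only. Slc30a10, a metal transporter, had 28 UMIs in 19 nuclei at 310 against 30.8 CPM, with 145 CPM in astrocyte-marker nuclei. Slc19a1, the reduced folate carrier, had 9 UMIs at 99.5 against 9.11 CPM, with 12.1 CPM in astrocyte-marker nuclei and 18.5 CPM in fibroblast nuclei. Slc1a3 and Slco1c1 belong to the same list and are also astrocyte genes. Of 24 transcription factors, 13 stood above other nuclei and 9 entered, with 6 called higher, through the chosen nuclei only, and 1 lower. Zic4 (177 against 18.7 CPM), Nr2f2 (144 against 22.8 CPM) and Prrx1 (88.5 against 10.5 CPM) joined Ebf1, Zic1 and Tbx18, and in fibroblast nuclei Zic4, Nr2f2 and Prrx1 were higher still, at 411, 245 and 106 CPM. So was Tbx18, at 116 against 88.5 CPM, and its 8 UMIs here were in 3 nuclei, with 0 in BTBR. Mef2c, which neurons also express, was lower, at 597 against 1379 CPM. Of 12 inward rectifier and associated subunit genes, 7 stood above other nuclei and 6 entered, with 2 called higher (Abcc9 and Kcnj10), through the chosen nuclei only, and 3 lower (Kcnj3, Kcnj6 and Kcnj9), through the others only. With their levels set to 33.2 CPM, 2 of the 3 were still at 0.5 or less. Kcnj10, the astrocyte channel, had 5 UMIs, all in Nav1 KO. Of 17 other RGS genes, 8 stood above other nuclei and 6 entered, with Rgs3 called higher (66.4 against 9.67 CPM) and Rgs9 lower (22.1 against 72.9 CPM), and the median ratio over the 17 was 0.999.

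The 5 lowest ratios belonged to A230006K03Rik, Sh2d5, Cpne4, Rasal1 and Gnal, each with 0 UMIs here. Against an upper limit of 40.8 CPM for 0 UMIs, A230006K03Rik was at 176 CPM and Gnal at 89.4 CPM in the other nuclei.

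Nearest in kind are the nuclei that carry fibroblast or endothelial genes without the 5 markers. Without P2ry14, the pericyte list in the chosen nuclei was 1.74 times its level in 494 fibroblast nuclei (1.47 to 2.06), where Zic1 was the most abundant of its genes. It was 3.32 times its level in 24 endothelial nuclei (2.01 to 5.83), where 16 of 17 UMIs were of Ebf1. In astrocyte-marker nuclei it was at 326 CPM, and the ratio was 5.86 (5.00 to 6.84). The endothelial list was at 99.5 CPM against 7119 CPM in the endothelial nuclei, and the fibroblast list at 852 CPM against 3456 CPM in the fibroblast nuclei.

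The share of Vtn/Pdgfrb nuclei was 0.130% in C57BL/6J (Clopper-Pearson interval 0.0782 to 0.203), 0.157% in Nav1 KO (0.0981 to 0.237) and 0.122% in BTBR (0.0722 to 0.192). The ratio of shares was 1.21 for Nav1 KO over C57BL/6J (0.623 to 2.35) and 0.938 for BTBR over C57BL/6J (0.464 to 1.89), and both intervals held 1. These are shares of sorted nuclei. Per nucleus without Slc17a7, Gad1 and Gad2 the ratios were 1.52 (0.783 to 2.96) and 1.26 (0.622 to 2.53). Per endothelial nucleus they were 0.926 (0.478 to 1.81) and 1.26 (0.625 to 2.54). Endothelial nuclei were few, since Nav1 KO had 10 of them, C57BL/6J 8 and BTBR 6. The last 2 intervals take these numbers as fixed and leave out their counting error, so they are too narrow. With oligodendrocyte and astrocyte genes also excluded the ratios were 0.867 (0.336 to 2.19) and 0.577 (0.193 to 1.59). With Vtn left out of the rule they were 0.743 (0.186 to 2.72) and 1.13 (0.359 to 3.67). The libraries differed in depth, with 911 UMIs in the median chosen nucleus of C57BL/6J, 1662 in that of Nav1 KO and 1521 in that of BTBR. With every nucleus reduced at random to 1000 UMIs, 12, 8 and 7 of the chosen nuclei were too shallow to enter, and 5, 18 and 21 nuclei passed the rule. The whole rule was applied to the reduced counts, so nuclei that lost their UMIs of the exclusion genes could enter, as some did in BTBR. The ratios, which are thus not of the same nuclei, were then 3.44 (1.23 to 11.9) and 4.05 (1.49 to 13.8). Without the exclusion genes they were 4.40 and 3.33, on 83, 351 and 279 nuclei. The shares without the exclusion genes, 0.567%, 2.497% and 1.89%, lay above the 0.183%, 1.31% and 1.44% of Slc17a7 nuclei that passed the same 5-gene part, and C57BL/6J was lowest in both. No difference in the number of pericytes was read from these shares.

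**Figure D5:**
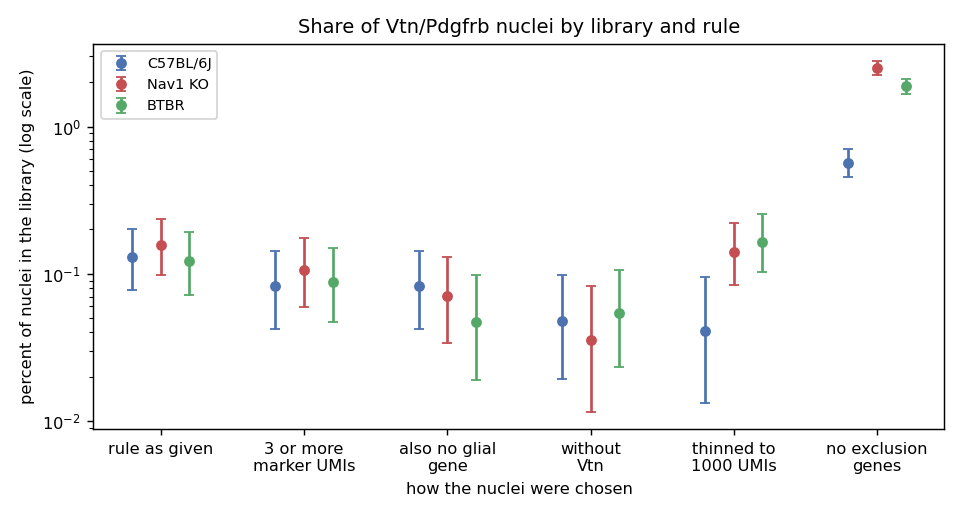
Percent of each library's nuclei that passed the rule (log scale) under 6 ways of choosing them, with exact 95% Clopper-Pearson intervals for 1 library per group. The intervals of the 3 libraries overlap under the rule as given, from 0.122% to 0.157%, and C57BL/6J lies lowest after thinning to 1000 UMIs (0.0409%) and without the exclusion genes (0.567%).

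Within the chosen nuclei, Nav1 KO was set against C57BL/6J over 196 genes that reached 100 CPM in either library and 20 UMIs in the pair, with 10 CPM added to both sides. With 1 library per group, 29 genes had a ratio of at least 2 (14.8%) and 23 of at most 0.5 (11.7%), with a median of 1.02. The 5 highest were Slc4a4 (23 UMIs against 1), Clu (21 against 1), Dtna (24 against 2), Plpp3 (31 against 3) and Ptprz1 (38 against 4), genes known to be expressed in astrocytes. In other nuclei the same ratios were 1.03 for Slc4a4 and 2.13 for Plpp3. Rian (7 UMIs against 27), Cald1 (8 against 22), Nbeal1, Herc1 and Lrp1 had the lowest ratios. Cald1 was at 0.174 times its C57BL/6J level (0.0670 to 0.406). The pericyte list was at 1455 CPM in Nav1 KO and 2989 CPM in C57BL/6J, a ratio of 0.487 (0.333 to 0.712). The neuronal genes had a ratio of 0.522 (0.454 to 0.601) between the same nuclei, against 0.810 in other nuclei, and the astrocyte list one of 1.17 (0.858 to 1.62), and their part in it was not tested. In nuclei with 5 or more marker UMIs the pericyte list was at 5124 CPM in 7 Nav1 KO nuclei (3569 to 7127) and 3828 CPM in 7 C57BL/6J nuclei (2544 to 5533), and these intervals overlapped. With 3 or 4 marker UMIs it was at 954 CPM (545 to 1549) and 4164 CPM (2507 to 6502), and these did not. The mitochondrial share moved with this comparison, with a median of 0.918% per nucleus in Nav1 KO and 0.464% in C57BL/6J. Of 8 mitochondrial genes compared, 5 were among the 29 higher, and the ratios of the 8 ran from 1.30 to 3.59 here and from 0.686 to 1.24 in other nuclei. The part of these in the other ratios was not tested. In chosen nuclei that also lacked the oligodendrocyte and astrocyte genes, 40 genes could be compared, of which 3 (7.5%) were called higher and 5 (12.5%) lower.

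BTBR was set against the same C57BL/6J nuclei over 158 genes. There were 22 genes with a ratio of at least 2 (13.9%) and 13 of at most 0.5 (8.23%), with a median of 1.17. The 5 highest were Psap (20 UMIs against 3), Atp1b1 (30 against 5), Kmt2a (18 against 3), Ttyh1 (17 against 3) and Epha5 (38 against 7). The lowest were Slc7a11 (5 against 20), AC149090.1 (6 against 20), AY036118 (12 against 39), Cald1 (11 against 22) and Gm42418 (33 against 64). AC149090.1 and AY036118 were also low in other BTBR nuclei, at 0.242 and 0.409 times their C57BL/6J levels, and Slc7a11, found here only beside astrocyte UMIs, was not, at 1.38. The neuronal genes moved with this comparison, with 912 UMIs in BTBR against 384 in C57BL/6J, a ratio of 1.51 (1.34 to 1.71). The pericyte list had a ratio of 0.713 (0.493 to 1.03). Both comparisons share the C57BL/6J nuclei, which supplied 19402 UMIs, so 3 UMIs there are 155 CPM.

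The navigator genes, which guide cell migration and neurite growth, were not higher in these nuclei than in others. Nav1 had 3 UMIs in C57BL/6J nuclei, 8 in those of Nav1 KO and 2 in those of BTBR, with 144 CPM over all against 245 CPM in other nuclei. The deletion is in exon 1 and the tags are at the 3′ end, so the Nav1 count does not check the knockout. Nav2 had 24 UMIs at 265 against 413 CPM, a ratio of 0.642 (0.411 to 0.955) that was not called. Nav3 had 14 UMIs and was called lower, at 155 against 409 CPM. For Nav1 the ratio of 0.587 had an interval of 0.312 to 1.00.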

How the data were processed

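The authors deposited filtered matrices of counts (UMIs per gene and nucleus), 1 for each library, made with Cell Ranger 6.0.0 and mm10 per the submitters' processing notes in the labels. The values are whole counts. The matrices held 15402, 14623 and 15238 barcodes in C57BL/6J, Nav1 KO and BTBR, and 14630, 14056 and 14778 were kept. Barcodes shared between libraries numbered 66, 59 and 55 per pair, and 1 chosen nucleus had one. No doublet caller was run, and the nuclei with the most UMIs in each library were left out in an alternative.

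The rule was applied to each nucleus, counts were summed over chosen and other nuclei, and CPM were taken of all their counts. The 3′ tags give 1 count per molecule, so no length scaling was made. Ratios, thresholds and floors of 3 counts are as in the text. Intervals are exact (Poisson, Clopper-Pearson, binomial split). Endothelial nuclei had Flt1 and Cldn5, fibroblast nuclei at least 2 of the 4 fibroblast genes, and neither had any of the 5 markers, the neuronal genes or the genes of the other. Astrocyte-marker nuclei had at least 2 UMIs of Aqp4 and Gja1. Genes named are the rule genes, the 20 highest and 5 lowest ratios, list members and the 5 highest and lowest between libraries, with others added after their values were seen. A few genes that the rule names are not reported here. Astrocyte-marker nuclei as a reference and nuclei without astrocyte UMIs were alternatives added after seeing the data. The nuclei and lists were chosen with earlier results of these data known. The ratios and their intervals were tested on simulated summed counts of genes well detected in other nuclei, and the rule on a small made-up matrix. Genes at low levels, the spread between nuclei and the other steps were not simulated. Alternatives of the rule, filter, added CPM and libraries were run. The tools were scipy 1.17.1 and numpy 2.4.6 under Python 3.11.15, pandas 2.3.3 for tables and matplotlib 3.10.9 for plots. Coordinates are from GENCODE M21 and promoters from RefSeq.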

Additional observations from a re-analysis of the deposited data

Results flagged for a closer look

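The 5-gene part of the rule also picked nuclei that its exclusion genes then kept out, and 3 such groups held more pericyte UMIs than the 257 CPM of the other nuclei. The 19 nuclei with endothelial genes only stood at 2731 CPM (2217 to 3328), where the chosen nuclei stood at 2013 CPM (1731 to 2327), and their 18 contractile genes stood at 1393 CPM. By library the pericyte genes were at 10631 CPM in 2 C57BL/6J nuclei, 1880 CPM in 13 Nav1 KO nuclei and 5669 CPM in 4 BTBR nuclei. Without Nav1 KO, a step chosen after seeing the data, the pericyte level was 6895 CPM and the contractile level 2627 CPM. The 200 nuclei with fibroblast genes only stood at 1855 CPM (1723 to 1993), with 4631 CPM of the fibroblast list. The 87 nuclei with neuronal genes only stood at 551 CPM (488 to 620) and were deeper, with a median of 4221 UMIs. Astrocyte genes were present in each group. They stood at 3038 CPM in the nuclei with fibroblast genes only and 1399 CPM in those with neuronal genes only. In those with endothelial genes only they stood at 1979 CPM, or 328 CPM without Nav1 KO. The intervals cover counting error only, and no cause was tested.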

How the results depend on the processing

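Of the alternatives, 82 planned values and 2 added after seeing the data were inside the reported value's counting interval or, for counts and medians, within 1.5 times it, and 36 and 3 moved. Of these 84, 12 were nonetheless over 1.5 times apart from the reported value (6) or were ratios of shares on the other side of 1 (7, 1 of them both), so the order of the libraries' shares did not hold across settings. Without the exclusion genes the share of C57BL/6J was 0.567%, that of Nav1 KO 2.497% and that of BTBR 1.89%, with ratios of 4.40 and 3.33. Thinned to 1000 UMIs, C57BL/6J was at 0.0409%, with ratios of 3.44 and 4.05, where nuclei that lost their exclusion UMIs could enter. With Vtn left out of the rule the shares were 0.0478%, 0.0356% and 0.0541%. With oligodendrocyte and astrocyte genes also excluded they were 0.0711% in Nav1 KO and 0.0474% in BTBR. Against other nuclei, genes called higher and lower numbered 1494 and 1442 of 9185 at a filter of 20 CPM, 2134 and 3138 of 25403 with no filter, and 232 and 317 of 1943 at 100 CPM. Genes called higher were 1053 of 5004 tested with at least 3 marker UMIs and 1351 of 5187 without the oligodendrocyte and astrocyte genes. The reported count was 644 of 4553. Against astrocyte-marker nuclei 339 were higher and 381 lower of 4333, and 1267 of 5202 were higher in nuclei without an astrocyte UMI (both added). Leaving out each library in turn gave from 790 of 4663 (without C57BL/6J) to 1040 of 5032 (without BTBR) genes higher. A smaller set holds fewer UMIs, so fewer UMIs of a gene reach 50 CPM, and why these counts moved was not tested. With each library left out the pericyte median was 5.86 (without C57BL/6J) to 9.07. That median was 14.5 with 1 CPM added and 4.07 with 20 CPM. Between Nav1 KO and C57BL/6J, 12 genes were higher and 5 lower of 60 tested at 200 CPM and 40 UMIs (20% and 8.33%), 12 and 10 of 73 with at least 3 marker UMIs (16.4% and 13.7%), and 3 and 5 of 40 without the oligodendrocyte and astrocyte genes, beside 29 and 23 of 196. Between BTBR and C57BL/6J these were 3 and 4 of 47 (6.38% and 8.51%), then 9 and 9 of 68 (13.2% each). Without the oligodendrocyte and astrocyte genes they were 6 and 3 of 42 (14.3% and 7.14%), beside 22 and 13 of 158 (13.9% and 8.23%). With fewer genes tested, counts fall by construction. The share called higher moved as well, in Nav1 KO from 14.8% to 20% at 200 CPM and 40 UMIs. Without the oligodendrocyte and astrocyte genes it was 7.5% in Nav1 KO. In BTBR it went from 13.9% to 6.38% at 200 CPM and 40 UMIs, and why the shares moved was not tested. The 20 leading genes kept a ratio of at least 2 under all but the following settings tried for them. With oligodendrocyte and astrocyte genes excluded 18 did, with Slc7a10 lowest at 0.182. Against astrocyte-marker nuclei 17 did, and in nuclei without astrocyte UMIs 18 did, with Slco1c1 lowest at 0.220. The 20 were chosen for high ratios in the same data, so this was nearly fixed in advance and supports nothing. A change of filter cannot move a ratio. With 90426 UMIs in 59 nuclei, genes under 33.2 CPM could not be compared, and differences between mice could not be told apart from those between groups. The values without C57BL/6J of the nuclei with Acta2 could not be computed, since those nuclei are in that library. No paired analysis was possible because each group has 1 library.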

Other observations

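Other lists gave few called genes. Of 7 oligodendrocyte genes, 3 entered and 1 was called higher, and the summed list was at 155 CPM in C57BL/6J, 617 CPM in Nav1 KO and 1050 CPM in BTBR. Of its 60 UMIs, 43 were in 3 nuclei, 1 from Nav1 KO and 2 from BTBR. Of 5 genes of oligodendrocyte precursors, 2 entered, with Cspg5 higher (73 UMIs) and Tnr lower. No microglial gene entered, and Cx3cr1, P2ry12 and Tmem119 had 0 UMIs. Of 6 genes of ensheathing glia, 4 entered and 3 were higher, led by Apod with 22 UMIs. Of 6 excitatory neuron genes, 3 entered, with Rorb higher (41 UMIs) and Camk2a lower, and of 5 inhibitory neuron genes 2 entered and both were called lower, 1 of them also with its level set to 33.2 CPM. The 4 choroid and ependymal genes had 1 UMI, of Kl. The 5 nuclei that met the rule but failed a quality filter held 4 pericyte UMIs, or 609 CPM (166 to 1560).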
